A study of Homo sapiens with 12 samples.

Results

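HK2 is an established line of human cells from the proximal tubule of the kidney. The libraries described here compared HK2 cells that stably carried a short hairpin RNA (shRNA) directed against FLCN with HK2 cells that carried a nontarget shRNA, named shControl in the labels and given there as wild type (WT). Both were harvested at fewer than 30 passages, which the study counted from clonal selection and termed short-term. Each group held 3 biological replicates by its labels, so the comparison used 6 of the 12 libraries of the series, and the labels name no other treatment for either group. The clone behind each library is not named, and what the shRNA did and what its clone already differed in cannot be told apart. Polyadenylated RNA was sequenced, and levels are given in CPM, the authors' read counts per gene scaled to an effective library size of 1000000 counts. Library totals ranged from 6284233 to 7279890 counts in the nontarget group and from 5825779 to 8151168 counts in the knockdown group.

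FLCN encodes folliculin, the tumor suppressor lost in Birt-Hogg-Dube syndrome, which predisposes to kidney tumors, skin fibrofolliculomas and lung cysts. Folliculin binds FNIP1 or FNIP2 and, on the lysosome, stimulates GTP hydrolysis by the Rag GTPases RRAGC and RRAGD. In this role it lets mTORC1 phosphorylate the transcription factors TFEB, TFE3 and MITF, which then stay in the cytoplasm. When folliculin is lost, TFEB and TFE3 are known to enter the nucleus and to raise genes of lysosomes, autophagy and metabolism, among them FNIP2, RRAGD and GPNMB.

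The cell type in the labels was first set against its markers. The epithelial keratins KRT8 and KRT18 and the renal factor PAX8 were expressed in every library, with KRT8 at 1738, 1652 and 1640.1 CPM in nontarget and 1999, 1869 and 2581 CPM in knockdown libraries and PAX8 at 161, 177 and 148 CPM and 195, 208 and 209 CPM. PAX8 was called higher by edgeR (log2 fold change 0.33). It lost its edgeR call without nontarget replicate 1, 2 or 3 or FLCN knockdown replicate 1, 2 or 3 (adjusted p = 0.142, 0.0559, 0.196, 0.0777, 0.121 and 0.102, in that order). With no filter on low counts its edgeR adjusted p was 0.0653. The renal factor PAX2 and the epithelial marker CDH1 had at most 2 and 5 counts in any library. Of 12 markers of the differentiated proximal tubule, 4 passed the filter on low counts, and LRP2, SLC22A6 and HNF4A, which encode the uptake receptor megalin, an organic anion transporter and a nuclear receptor of that segment, had 0 counts in all 6 libraries. The summed level of these 12 markers ranged from 126 to 134.5 CPM in nontarget and from 173 to 188 CPM in knockdown libraries. Markers of endothelial and immune cells were near 0, with summed levels of at most 1.097 and 1.39 CPM in any library. The 6 fibroblast markers had summed levels of 49.1 to 50.5 CPM in nontarget and 52.1 to 56.7 CPM in knockdown libraries, with 3 of them past the filter. In bulk RNA, fewer cells of a type and less RNA per cell cannot be told apart, and the part of these markers in the results was not tested.

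FLCN itself lies on chromosome 17 (GRCh38, chr17:17212212-17237188, minus strand). Its level was 12.7, 16.7 and 16.5 CPM in the nontarget libraries and 5.93, 6.56 and 5.65 CPM in the knockdown libraries. All 3 knockdown libraries were below all 3 nontarget libraries, and the level fell by 60.2% (adjusted p = 1.12e-04 by edgeR), which is a log2 fold change of −1.33 with an SE of 0.18. In this annotation 1161 bases of FLCN exons also belong to the overlapping gene AC055811.2, and since the library kit does not mark strand, reads there cannot be told apart.

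FNIP2 and RRAGD, a partner and a target of folliculin, rose. FNIP2 was measured at 21.96, 23.8 and 20.7 CPM in nontarget and 44.7, 54.4 and 41.8 CPM in knockdown libraries, and RRAGD at 13.6, 13.03 and 11.4 CPM and then 31.3, 29.9 and 21.7 CPM. Neither gene's groups overlapped, and the rises were 2.12-fold (adjusted p = 7.44e-05) and 2.18-fold (adjusted p = 4.02e-04). FNIP1, the other partner, had a log2 fold change of −0.056 (SE 0.14, adjusted p = 0.867), and RRAGC, the closest relative of RRAGD, one of 0.045 (SE 0.21). With FLCN, 2 of the 12 tested genes for folliculin, its partners and the Rag and Ragulator proteins rose and 1 fell. Among all 13959 genes tested 10.3% were called at an adjusted p below 0.05, 5.62% higher and 4.71% lower after knockdown. The transcripts of TFEB, TFE3 and MITF themselves had log2 fold changes of −0.18, 0.11 and 0.054, none of which passed the test. The TFEB value was the least precise, with an SE of 0.32.

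**Figure D1:**
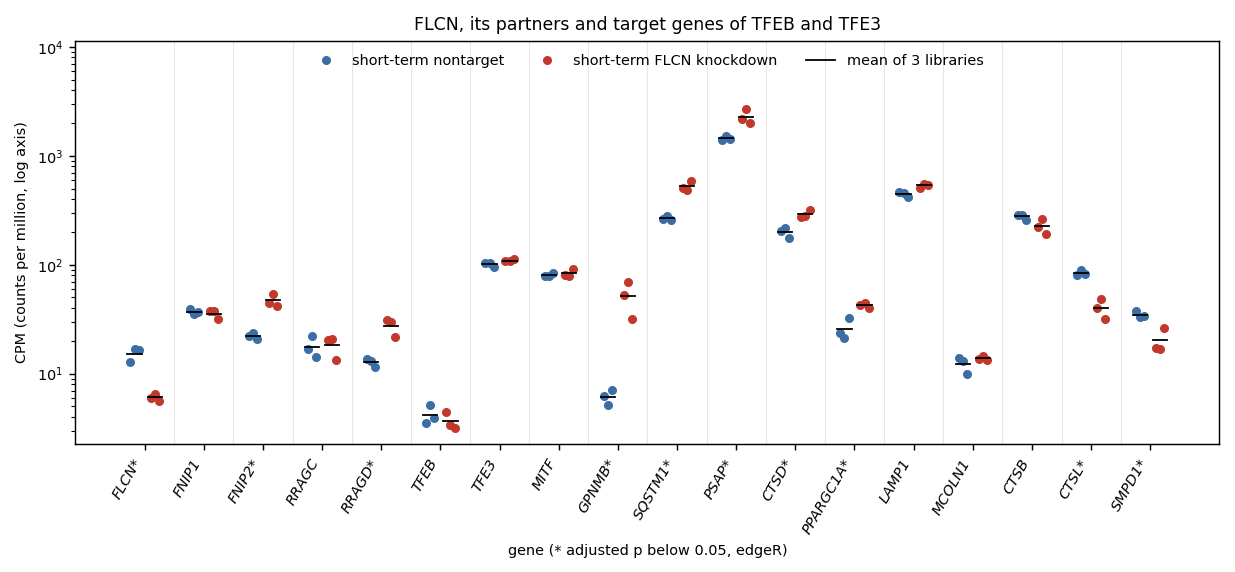
Levels of FLCN, its partners and target genes of TFEB and TFE3 in CPM on a log axis, with 1 point per library (blue, short-term nontarget; red, short-term FLCN knockdown) and a line at the mean of 3 libraries. FLCN lies lower and FNIP2, RRAGD and GPNMB lie higher in all 3 knockdown libraries, while the points of FNIP1, TFE3 and MITF lie close together.

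Of 34 tested target genes of TFEB and TFE3, 7 rose and 1, FLCN itself, fell. The median log2 fold change of the list was 0.024, beside −6.9e-05 for all genes. Without 1 library that median lay between −0.032 and 0.095, so its sign is not firm. Without chromosomes 2, 4, 5 and 10, described below, 3 of 28 rose and 1 fell. Of the rises left out in this way, FNIP2 and PPARGC1A lie on chromosome 4, where the median of all genes was lower (−0.10). The largest rise was that of GPNMB, a transmembrane glycoprotein of lysosomes and melanosomes, from 6.27, 5.15 and 7.05 CPM to 53.02, 68.8 and 31.96 CPM, or 8.34-fold (adjusted p = 6.55e-07). SQSTM1, which encodes the autophagy receptor p62, was measured at 262, 281 and 258 CPM and then 503, 485 and 590.2 CPM, a 1.97-fold rise (adjusted p = 1.72e-05). SQSTM1 lies near the end of chromosome 5, where the 40 nearest tested genes had a median log2 fold change of 0.48, and its exons overlap those of MRNIP over 1582 bases. PSAP, the precursor of the saposins that activate lysosomal lipid hydrolases, rose 1.59-fold (adjusted p = 0.00287) on chromosome 10, where its neighbors had a median of 0.26, and the protease gene CTSD and the mitochondrial coactivator PPARGC1A rose 1.47-fold and 1.65-fold. CTSD shares 1304 exon bases with AC068580.4. CTSD lost its edgeR call without nontarget replicate 1 or 3 or FLCN knockdown replicate 3 (adjusted p = 0.0688, 0.106 and 0.0642, in that order). PPARGC1A lost its edgeR call without nontarget replicate 1 or 2 (adjusted p = 0.0532 and 0.061000, in that order). Other genes often used as readouts of these factors did not pass: LAMP1 had a log2 fold change of 0.26 (adjusted p = 0.163), MCOLN1 of 0.16 and CTSB of −0.30 (adjusted p = 0.111, or 0.0394 without FLCN knockdown replicate 2).

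Of 67 tested lysosomal hydrolases and membrane proteins 3 rose and 5 fell, or 11.9% beside 10.3% of all genes, with a median log2 fold change of −0.069. CTSL, which encodes the cysteine protease cathepsin L, fell from 80.9, 89.6 and 81.8 CPM to 39.8, 48.7 and 31.96 CPM, by 52.1% (adjusted p = 7.82e-05). SMPD1, the acid sphingomyelinase, fell by 42.7% (adjusted p = 0.00327). Of 20 subunits of the V-ATPase, the proton pump of the lysosome, 1 rose and 1 fell, both of them on chromosomes 5 and 2, a share close to that of all genes. The fall was that of ATP6V1C2, which shares 1033 exon bases with PDIA6. ATP6V1C2 lost its edgeR call without nontarget replicate 2 or 3 or FLCN knockdown replicate 1, 2 or 3 (adjusted p = 0.134, 0.0679, 0.0512, 0.07102 and 0.0733, in that order). Among 48 autophagy genes 5 were called, or 10.4% beside 10.3% of all genes. Of these 4 rose, SQSTM1, ATG9A, ATG4B and BNIP3, and all 4 lie on chromosomes 2, 5 or 10. ATG9A shares 1833 exon bases with AC068946.2, and without strand their reads cannot be told apart. The 1 that fell was ULK2, a kinase that starts autophagy (log2 fold change −2.09, adjusted p = 0.00369). ATG9A lost its edgeR call without nontarget replicate 2 or 3 or FLCN knockdown replicate 3 (adjusted p = 0.0606, 0.0696 and 0.0706, in that order). ATG4B lost its edgeR call without nontarget replicate 1, 2 or 3 or FLCN knockdown replicate 3 (adjusted p = 0.0512, 0.116, 0.0568 and 0.0846, in that order). BNIP3 lost its edgeR call without nontarget replicate 3 or FLCN knockdown replicate 1 or 2 (adjusted p = 0.0881, 0.0739 and 0.06502, in that order). Among 36 tested genes of the mTOR complexes and their regulators 1 rose and 1 fell, namely RICTOR, a core protein of mTORC2 (log2 fold change 0.63), and SESN3, a sestrin that restrains mTORC1 (−1.91, adjusted p = 0.00242), while MTOR and RPTOR had log2 fold changes of 0.075 and 0.0070. RICTOR lies on chromosome 5, where its 40 nearest tested genes had a median of 0.27, and without chromosomes 2, 4, 5 and 10 the mTOR list held 0 rises and 1 fall among 32 genes. Of the 36 mTOR genes 5.56% were called, beside 10.3% of all genes. RICTOR lost its edgeR call without nontarget replicate 1 or 2 (adjusted p = 0.0581 and 0.0519, in that order). ULK2 and SESN3 were chosen after their values were seen. DEPTOR, an inhibitor of mTOR, had a value of −0.36 (SE 0.15, adjusted p = 0.163). None of the 12 tested subunits of the energy sensor AMPK and its upstream kinases was called by edgeR, with 3 at an unadjusted p below 0.05 and 0 called by DESeq2.

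TFEB, TFE3 and MITF bind the palindromic E-box CACGTG. In the RefSeq table of promoters (GRCh38.p14), the 250 bases before the start site were searched for these letters on both strands, which coincide. 11 of 27 promoters of 21 matched target genes held it (40.7%), beside 6.34% of all 35116 promoters and 8.37% of those of the genes tested. CTSD, which rose, holds a single copy, whereas LAMP1 and MCOLN1, which were not called, hold 5 and 2. PPARGC1A, which also rose, holds 1 copy in 1 of its 2 promoters in the table. The windows printed here contrast these genes, with the E-box in capitals and the strand of the gene read 5′ to 3′, at chr11:1763959-1763984 (minus strand), chr13:113297037-113297226 and chr19:7522573-7522623 (both plus strand).
CTSD: cggccgcgccCACGTGaccggtccgg
LAMP1: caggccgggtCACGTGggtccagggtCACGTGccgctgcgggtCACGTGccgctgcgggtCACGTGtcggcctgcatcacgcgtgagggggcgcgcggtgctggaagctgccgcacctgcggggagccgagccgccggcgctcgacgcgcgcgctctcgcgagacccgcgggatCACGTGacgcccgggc
MCOLN1: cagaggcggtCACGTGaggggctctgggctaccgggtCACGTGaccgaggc
The promoters of GPNMB, FNIP2 and SQSTM1 in the table hold no CACGTG in this window, although all 3 genes rose.

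Across all genes, 784 rose and 657 fell at an adjusted p below 0.05, 1441 in all. Without the genes of chromosomes 2, 4, 5 and 10, which are described next, the split was 368 higher and 547 lower among 11339 genes. Without nontarget replicate 1 the count was 874 and without nontarget replicate 2 it was 906. With a fold change of at least 2.5 as well, 156 rose and 94 fell, which is 1.79% of the genes tested (1.12% higher and 0.673% lower). These genes were not spread evenly over the genome. On chromosome 2 the median log2 fold change of 932 tested genes was 0.31, 85.4% of them had a value above 0, and 215 rose while 14 fell. Chromosome 5 held 125 rises and 33 falls among 606 genes, and chromosome 10 held 61 and 19 among 559. The median of chromosome 10 was 0.13 and that of chromosome 4 was −0.10, with 15 rises and 44 falls among 523 genes, and every other autosome and chromosome X lay within 0.1 of all genes.

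**Figure D2:**
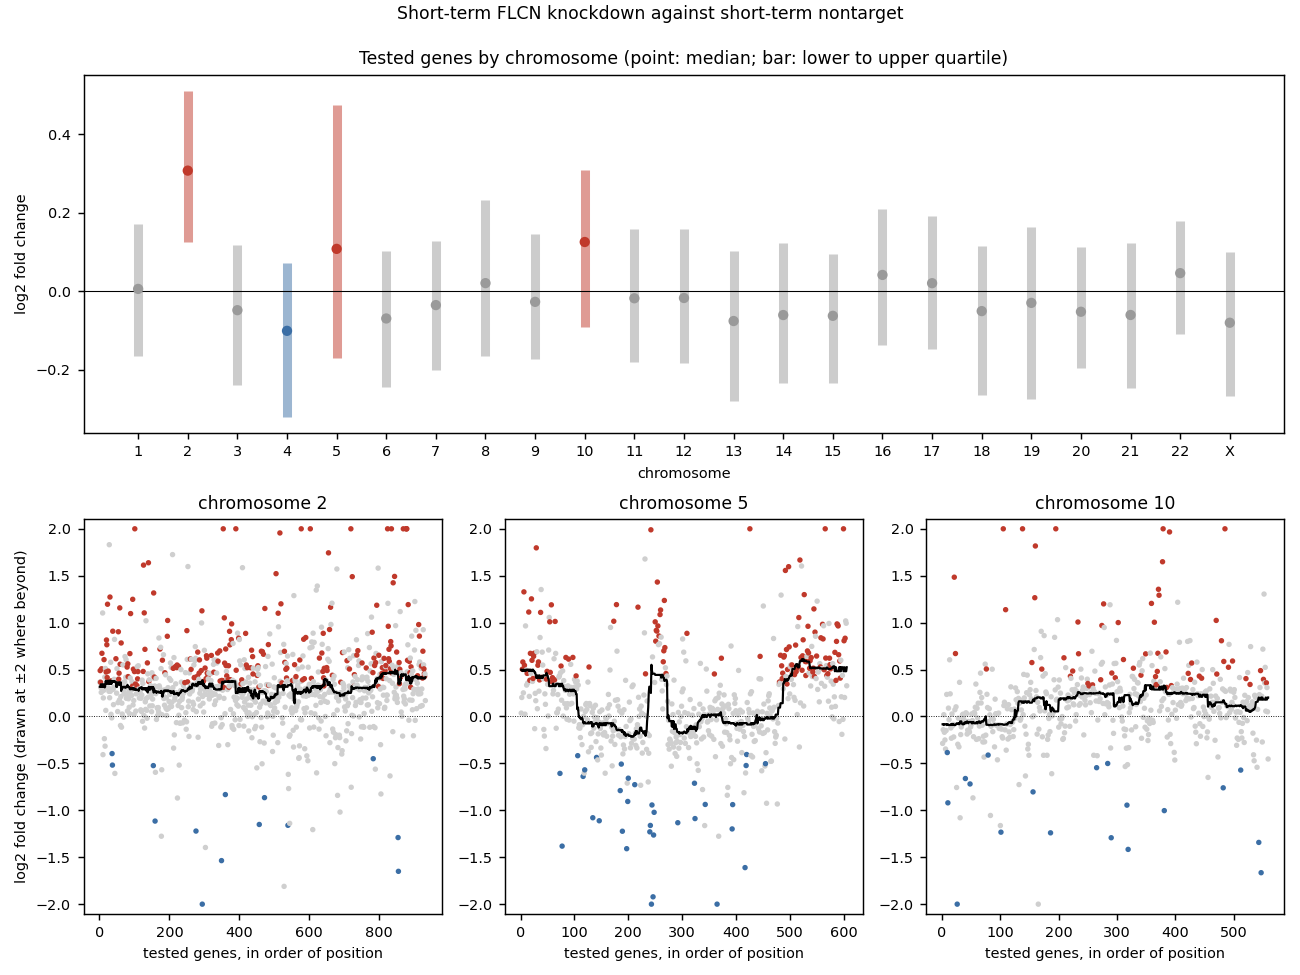
Upper panel, median (point) and quartiles (bar) of the log2 fold change of the tested genes of each chromosome, with medians beyond 0.1 in red (higher) or blue (lower). Lower panels, each tested gene of chromosomes 2, 5 and 10 in order of position (red, called higher; blue, called lower; grey, not called) with the median of its 40 nearest tested genes as a black line, which stays above 0 along chromosome 2 and steps up in 3 blocks of chromosome 5.

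The shift covered most of chromosome 2, whereas on chromosome 5 it had edges. Runs of at least 25 tested genes whose 40 nearest genes had a median of at least 0.2 in size were located, and since the same values chose them they are described without a test. On chromosome 5 the first was chr5:92151-44828592, where 34 of 104 genes rose, 2 fell and the median was 0.38. The second, chr5:90392261-103562793, was mixed, with 15 of 35 genes higher, 7 lower and a median of 0.58. Its lower quartile was −0.062, and 74.3% of its genes had a value above 0. The third was chr5:157029413-181272307, with 61 of 119 higher and a median of 0.53. In the last block no gene was called lower, and the 3 knockdown libraries had medians of 0.50, 0.49 and 0.48 on the log2(CPM + 1) scale relative to the nontarget mean, while the nontarget libraries had 0.0049, −0.021 and −0.018. On chromosome 2 the knockdown libraries had medians of 0.31, 0.29 and 0.23 over its first run and of 0.35, 0.34 and 0.22 over its second, so the shift was present in every knockdown library. A run at the end of chromosome 8 differed between the knockdown libraries, with 0.43 in replicate 3 and 0.077 and 0.078 in the others. On chromosome 19 both runs were lower, and they are clusters of zinc finger genes. The 1595 genes inside the runs of all chromosomes held 368 of the rises and 33 of the falls, and the 12364 genes outside them held 416 rises and 624 falls. Whether copy number differed between the clones was not tested, so counts below are also given without chromosomes 2, 4, 5 and 10 where these supply much of a list.

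Genes of the extracellular matrix changed in both directions. COL11A1, a minor fibrillar collagen that helps to set fibril diameter, was at 0.818, 0.303 and 0.627 CPM in nontarget and 130.4, 129 and 113 CPM in knockdown libraries (log2 fold change 7.67, adjusted p = 1.28e-11). COL5A1, which starts fibril assembly together with collagen I, was at 17.9, 19.4 and 29.6 CPM and 152, 137 and 251 CPM, an 8.08-fold rise (adjusted p = 4.86e-06). These were 2 of the 6 fibrillar collagens tested. COL1A1, the main chain of collagen I, had a log2 fold change of 0.34 (SE 0.23) and COL5A2 of 0.35 (SE 0.39), and neither passed.

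Of 14 tested basement membrane and other collagens 1 rose and 3 fell, with a median of −0.11 that lay between −0.18 and 0.017 without 1 library. COL4A1 and COL4A2, whose chains form the network under epithelia, were at 1086, 949.6 and 1448 CPM and at 1176, 1109.5 and 1465 CPM in nontarget libraries. In the knockdown libraries they were at 505, 509 and 722 CPM and at 619, 661 and 852 CPM, falls of 50.2% (adjusted p = 0.00243) and 43.1% (adjusted p = 0.00731). Of 29 tested enzymes that modify, fold and crosslink collagen 6 fell and 2 rose, with a median of −0.20. LOXL4, a lysyl oxidase that crosslinks collagen, fell by 50.1% (adjusted p = 7.14e-04) and PCOLCE2, an enhancer of procollagen cleavage, by 46.6% (adjusted p = 9.81e-04). LOX, the founding lysyl oxidase, rose 1.85-fold (adjusted p = 0.00249). Without chromosomes 2, 4, 5 and 10 the list had 0 rises and 4 falls among 23 genes. None of 10 laminin chains, the other main component of basement membranes, was called by edgeR, with 5 at an unadjusted p below 0.05 and 0 called by DESeq2.

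Of 44 tested matrix glycoproteins and proteoglycans 9 rose and 4 fell, and without chromosomes 2, 4, 5 and 10 the counts were 5 and 4 of 33. THBS2, an antiangiogenic thrombospondin, was at 44.3, 35.8 and 52.4 CPM and 98.3, 72.6 and 119 CPM, a 2.19-fold rise (adjusted p = 1.65e-04). VWA1, a protein of the pericellular matrix, rose 3.497-fold (adjusted p = 2.09e-04) and fibronectin (FN1), which lies on chromosome 2, 1.57-fold. FN1 lost its edgeR call without nontarget replicate 1 or 2 or FLCN knockdown replicate 1 (adjusted p = 0.0705, 0.0629 and 0.0506, in that order). CTGF (also named CCN2), a matricellular target of YAP and TGF-beta, fell by 45.9% (adjusted p = 4.01e-04). Of the cytoskeletal genes CNN1, which encodes calponin, fell by 48.6% and TAGLN by 34.3% (adjusted p = 0.00106 and 0.00342). Of the 37 tested genes of the actin cytoskeleton and the SRF and YAP targets, 6 fell and 2 rose, with a median of −0.033. Those that rose were NPPB, a natriuretic peptide precursor (4.38-fold, adjusted p = 3.84e-04), and F3, the tissue factor that starts coagulation (2.25-fold, adjusted p = 1.02e-05).

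**Figure D3:**
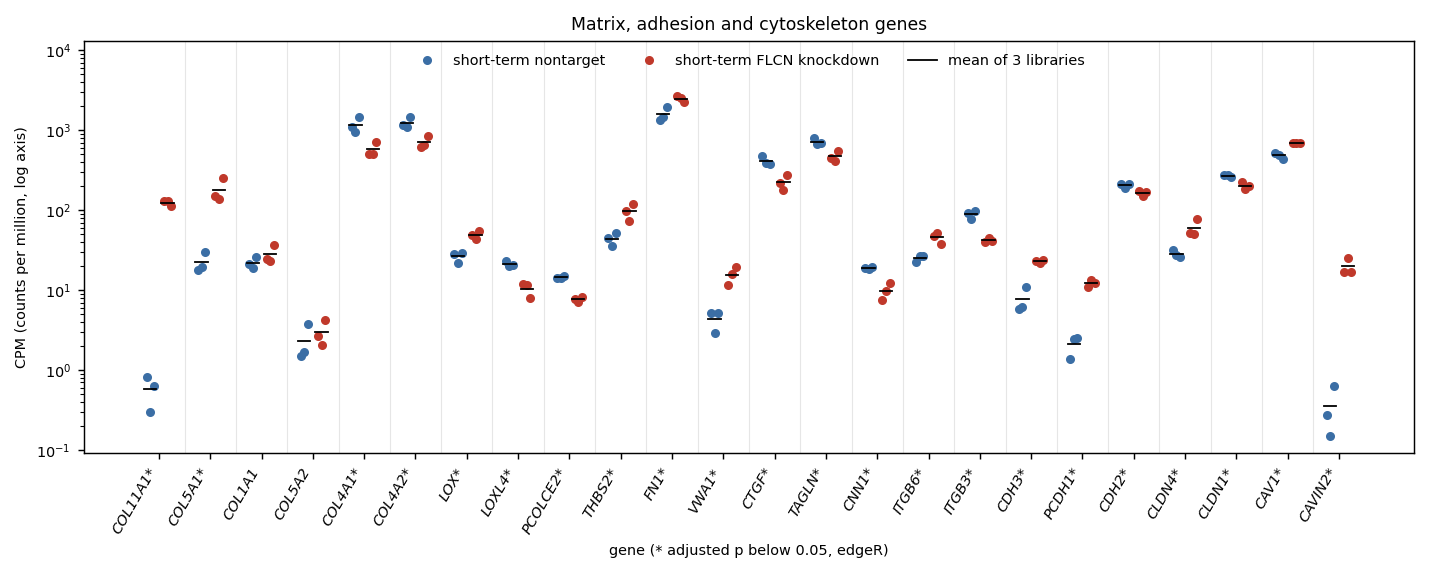
Levels of matrix, adhesion and cytoskeleton genes in CPM on a log axis, with 1 point per library (blue, short-term nontarget; red, short-term FLCN knockdown), a line at the mean of 3 libraries and an asterisk for an adjusted p below 0.05. COL11A1 and COL5A1 lie above their nontarget points, and COL4A1, COL4A2, CTGF and ITGB3 lie below theirs.

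Adhesion receptors changed in both directions within their families. Among 17 tested integrins ITGB6, an epithelial integrin subunit that activates latent TGF-beta, rose 1.79-fold (adjusted p = 7.62e-04), and ITGB3, a receptor subunit for vitronectin and fibronectin, fell by 52.5% (adjusted p = 4.90e-06). ITGB3, which shares 2266 exon bases with AC068234.1, was measured at 91.4, 77.7 and 98.9 CPM in nontarget and 40.6, 45.2 and 41.3 CPM in knockdown libraries. In all 5 integrins rose and 1 fell, and without chromosomes 2, 4, 5 and 10 the counts were 2 and 1 of 10. Among 26 cadherins and protocadherins 4 rose and 5 fell, with a median of −0.18. P-cadherin (CDH3) rose 2.996-fold (adjusted p = 1.05e-04) and PCDH1, a protocadherin of epithelia, 5.85-fold (adjusted p = 1.82e-06), whereas FAT4, a very large atypical cadherin, fell by 61.8% (adjusted p = 7.96e-04). E-cadherin (CDH1) had at most 5 counts in any library and was not tested, and N-cadherin (CDH2) fell by 20.4%. CDH2 lost its edgeR call without nontarget replicate 1, 2 or 3 or FLCN knockdown replicate 1, 2 or 3 (adjusted p = 0.158, 0.0514, 0.123, 0.0591, 0.1598 and 0.0545, in that order). CLDN4, a tight junction protein, rose 2.08-fold (adjusted p = 0.001004), whereas CLDN1 fell by 24.6%. CLDN1 lost its edgeR call without nontarget replicate 1 or 2 or FLCN knockdown replicate 2 (adjusted p = 0.073996, 0.0723 and 0.0832, in that order).

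The markers used for epithelial to mesenchymal transition gave no common direction, with 3 of 15 tested members higher and 3 lower, or 1 and 3 of 9 without chromosomes 2, 4, 5 and 10. S100A4, a calcium-binding protein of motile cells, rose 2.93-fold (adjusted p = 4.36e-04), and SNAI2, a transcriptional repressor of epithelial genes, fell by 40.4% (adjusted p = 0.00355). Vimentin (VIM) had a log2 fold change of 0.14 and ZEB1 of −0.24, and neither passed. Of 9 tested keratins 2 rose, KRT80 1.81-fold (adjusted p = 0.00547) and KRT81, a hair keratin with the near-identical paralog KRT86, 3.298-fold (adjusted p = 0.0301). KRT81 lost its edgeR call without nontarget replicate 1 or 2 or FLCN knockdown replicate 3 (adjusted p = 0.102, 0.114 and 0.116, in that order). This call was also lost in edgeR fits with only the 6 short-term libraries (adjusted p = 0.227) and with no filter (adjusted p = 0.206). Without FLCN knockdown replicate 3 the log2 fold change of KRT81 was 0.81, beside 1.72 with all libraries. KRT8 and KRT18 had values of 0.36 and 0.32 that did not pass, although with no filter on low counts KRT8 did (adjusted p = 0.0193). Of the membrane coat proteins of caveolae, CAV1 rose 1.43-fold (adjusted p = 0.00262). CAVIN2 went from 0.273, 0.152 and 0.627 CPM to 16.9, 25.5 and 17.1 CPM, from a total of 7 counts over the nontarget libraries to 406, while the other 6 tested members were not called and had log2 fold changes of 0.050 to 0.27.

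In receptor signaling, the EGF family split by ligand. TGFA rose from 16.1, 16.5 and 17.2 CPM to 35.2, 39.1 and 34.4 CPM (2.18-fold, adjusted p = 5.49e-05), and AREG, which encodes amphiregulin, fell from 20.5, 20.002 and 21.005 CPM to 9.22, 8.17 and 9.89 CPM (by 55.7%, adjusted p = 1.50e-04). TGFA lies on chromosome 2 and rose by 0.76 on the log2 scale more than the median of its 40 nearest genes. ETV1, one of the ETS factors induced by ERK signaling, fell by 58.1% (adjusted p = 1.22e-04). Of the 24 tested ligands, receptors and feedback genes of this family, 3 rose and 5 fell, with a median of −0.22, and without chromosomes 2, 4, 5 and 10 the counts were 2 and 3 of 15 with a median of −0.11. Their receptor EGFR rose 1.33-fold. EGFR lost its edgeR call without nontarget replicate 1 or 2 or FLCN knockdown replicate 1 or 2 (adjusted p = 0.157, 0.111, 0.0816 and 0.0685, in that order). The immediate early genes FOS, EGR1 and JUN had log2 fold changes of −0.77, −0.76 and 0.58 (adjusted p = 0.225, 0.0888 and 0.0603), so no call was made for any of them. By DESeq2 the adjusted p of JUN was 0.0333, and in edgeR fits with only the 6 short-term libraries and with no filter it was 0.0222 and 1.84e-04. EGR1 passed without FLCN knockdown replicate 3 (adjusted p = 0.0498).

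Of 14 tested insulin and IGF signaling genes 4 rose and 2 fell. Their median of 0.37 became 0.22 without FLCN knockdown replicate 3 and at most 0.51 without any other single library. IRS2, the adaptor of the insulin receptor, was at 89.9, 94.9 and 100.01 CPM and 156, 156 and 269 CPM, a 2.04-fold rise (adjusted p = 0.0119), with the highest level in replicate 3. With no filter on low counts its adjusted p was 0.08198. IGFBP6, a binding protein for IGF2, rose 1.97-fold (adjusted p = 3.32e-04). STC2, a secreted glycoprotein that inhibits the protease that frees IGF, rose 1.95-fold (adjusted p = 3.59e-06), in the last block of chromosome 5, where its 40 nearest genes had a median of 0.58. The receptor INSR fell by 39.9%. INSR lost its edgeR call without nontarget replicate 1 or 3 or FLCN knockdown replicate 1 (adjusted p = 0.0527, 0.0677 and 0.0773, in that order).

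Of 40 tested ligands, receptors, SMADs and inhibitors of the TGF-beta and BMP pathways 6 rose and 1 fell. BAMBI, a pseudoreceptor that blocks TGF-beta signaling, was at 0.955, 2.42 and 1.72 CPM and 9.22, 10.4 and 6.36 CPM (5.14-fold, adjusted p = 2.56e-04), and BMP8B and the coreceptor ENG rose 2.91-fold and 1.83-fold (adjusted p = 1.27e-04 and 0.002996). The ligands TGFB1 and TGFB2 had log2 fold changes of −0.28 (SE 0.21) and −0.085 (SE 0.11) and were not called. In the Hedgehog pathway SMO, the signal transducer, fell by 48.5% (adjusted p = 0.00574). Of 26 tested WNT ligands, receptors and secreted inhibitors 3 rose, or 11.5% called beside 10.3% of all genes. None fell by edgeR (3 lower at an unadjusted p below 0.05 and 0 lower by DESeq2). The WNT list had a median of 0.13, or 0.011 without chromosomes 2, 4, 5 and 10. Without 1 library its median lay between 0.042 and 0.20. Of the inflammatory genes, TNFRSF1B, the second receptor for TNF, fell by 77.997% (adjusted p = 3.32e-04) and IL1RAP, the accessory chain of the interleukin 1 receptor, by 41.9% (adjusted p = 0.00369), among 6 falls and 2 rises in 45 cytokine, chemokine and NF-kB genes.

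The 51 tested interferon-stimulated genes had a median of −0.33, and of −0.33 without chromosomes 2, 4, 5 and 10. Their median was −0.15 without nontarget replicate 2 and −0.54 without nontarget replicate 3, the ends of its range over the fits without 1 library. Among the members 8 fell and 1 rose. IFIT1, which binds viral RNA lacking a methylated cap, was at 93.8, 119 and 48.3 CPM in nontarget and 35.98, 44.2 and 16.8 CPM in knockdown libraries (a fall of 62.5%, adjusted p = 0.00774). This call was lost with only the 6 short-term libraries in the edgeR fit (adjusted p = 0.111) and with no filter on low counts (adjusted p = 0.0983). OASL, a relative of the oligoadenylate synthetases that sense double-stranded RNA, was at 35.1, 38.8 and 18.7 CPM and 13.5, 10.6 and 7.59 CPM (a fall of 65.2%, adjusted p = 4.04e-04). The groups did not overlap for either gene, but replicate 3 was the lowest of its group in both groups for both genes. OAS2 ranged from 1.72 to 13.8 CPM in nontarget libraries, and fell by 89.7% (adjusted p = 0.006602), with log2 fold changes of −3.89 to −2.29 without 1 library. IFI44L fell by 65.7%. IFI44L lost its edgeR call without nontarget replicate 2 (adjusted p = 0.0536). ISG15 had a log2 fold change of −0.51 (SE 0.24) that did not pass, and B2M, the invariant chain of MHC class I, had a value of −0.12 and was not called.

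Promoters of such genes are known for the interferon response element, searched here as TTTC, any 2 bases and TTTC again on both strands of the same 250 bases. It was found in 28 of 55 promoters of 41 matched members (50.9%), beside 3.02% of all promoters and 2.36% of those of the genes tested. The stretches that hold it are printed for IFIT1 and IFI44L, and for HERC5, a ligase for ISG15, and PLSCR1, a phospholipid scramblase, both chosen after their values were seen because they fell and are in the table. HERC5 lost its edgeR call without nontarget replicate 1 or 2 or FLCN knockdown replicate 1 or 3 (adjusted p = 0.0774, 0.1196, 0.0502 and 0.0678, in that order). PLSCR1 lost its edgeR call without nontarget replicate 1 or 2 or FLCN knockdown replicate 1, 2 or 3 (adjusted p = 0.1004, 0.2499, 0.0639, 0.06502 and 0.148, in that order). The 4 stretches lie at chr10:89392497-89392539, chr1:78620274-78620394 and chr4:88456984-88457064 (plus strand) and chr3:146544667-146544696 (minus strand) of GRCh38.p14, with matches in capitals.
IFIT1: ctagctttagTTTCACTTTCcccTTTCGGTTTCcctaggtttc
IFI44L: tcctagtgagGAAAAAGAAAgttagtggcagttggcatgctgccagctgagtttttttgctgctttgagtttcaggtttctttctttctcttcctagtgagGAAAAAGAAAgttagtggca
HERC5: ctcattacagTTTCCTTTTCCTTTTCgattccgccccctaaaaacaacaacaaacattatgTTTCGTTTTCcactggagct
PLSCR1: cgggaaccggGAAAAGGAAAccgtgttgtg
In IFI44L and PLSCR1 the match is on the other strand and reads GAAA, 2 bases and GAAA. HERC5 and PLSCR1 had log2 fold changes of −0.67 and −0.51 (adjusted p = 0.0212 and 0.04304). HERC5 lost its edgeR call without nontarget replicate 1 or 2 or FLCN knockdown replicate 1 or 3 (adjusted p = 0.0774, 0.1196, 0.0502 and 0.0678, in that order). PLSCR1 lost its edgeR call without nontarget replicate 1 or 2 or FLCN knockdown replicate 1, 2 or 3 (adjusted p = 0.1004, 0.2499, 0.0639, 0.06502 and 0.148, in that order).

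Several genes of glycolysis and of the response to low oxygen rose. Of 30 tested glycolysis and lactate genes 7 rose and 1 fell, with a median of 0.21. Of 28 other target genes of HIF-1 9 rose and 1 fell, with a median of 0.18. ENO1, the enolase of glycolysis, was at 3339, 3244 and 2860.4 CPM and 5713, 5335 and 5787 CPM, a 1.78-fold rise (adjusted p = 3.40e-05), and its neuronal relative ENO2 rose 1.95-fold (adjusted p = 2.37e-04). PFKFB3, which makes an activator of phosphofructokinase, rose 1.59-fold (adjusted p = 0.00134), and the glucose transporter SLC2A1 1.59-fold. SLC2A1 lost its edgeR call without nontarget replicate 1, 2 or 3 or FLCN knockdown replicate 3 (adjusted p = 0.0729, 0.10002, 0.0584 and 0.0829, in that order). LDHA and HK2, the lactate dehydrogenase and hexokinase genes, had log2 fold changes of 0.32 (adjusted p = 0.0677) and 0.21 that did not pass, although by DESeq2 the adjusted p of LDHA was 0.0362.

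Among the HIF-1 targets NDRG1, a stress-induced gene, went from 29.05, 33.03 and 28.8 CPM to 71.5, 74.1 and 82.98 CPM (2.51-fold, adjusted p = 9.30e-05). EPAS1, which encodes HIF-2 alpha and lies on chromosome 2, rose 2.03-fold (adjusted p = 0.00125), beside a median log2 fold change of 0.27 for its neighbors. HIF1A itself had a log2 fold change of −0.0043, VEGFA of 0.34 and DDIT4, an inhibitor of mTORC1, of 0.50 (adjusted p = 0.0917). DDIT4 passed with only the 6 short-term libraries in the fit, with no filter on low counts and without FLCN knockdown replicate 1 (adjusted p = 0.0497, 0.00189 and 0.0469, in that order). CA9, a carbonic anhydrase that HIF-1 induces strongly, had 1 count in the 6 libraries. Without chromosomes 2, 4, 5 and 10 the HIF-1 list held 4 rises and 1 fall among 15 genes and the glycolysis list 4 and 1 among 24.

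Several genes of lipid synthesis fell. Of 33 tested genes of fatty acid synthesis, desaturation and storage 6 fell and 1 rose. ACLY, which makes cytosolic acetyl-CoA from citrate, was at 447, 429.9 and 527 CPM and 193, 189 and 255 CPM, a fall of 54.7% (adjusted p = 2.18e-05). ELOVL6 and ELOVL7, which elongate fatty acids, fell by 58.7% and 52.7% (adjusted p = 0.00149 and 5.33e-04). FASN, the fatty acid synthase, had a log2 fold change of −0.031, SCD, a desaturase, of −0.38 (adjusted p = 0.0623) and their regulator SREBF1 of −0.39 (adjusted p = 0.148), and none of the 3 was called by edgeR, although by DESeq2 the adjusted p of SCD was 0.0444. In the sterol pathway 2 of 27 tested genes fell, or 7.41% beside 10.3% of all genes. None rose by edgeR (1 higher at an unadjusted p below 0.05 and 0 higher by DESeq2). The median of the list was −0.10, and it lay between −0.19 and −0.042 without 1 library. MSMO1, a sterol methyl oxidase, fell by 39.3% (adjusted p = 0.00346). PPARG, a nuclear receptor that drives lipid storage, fell by 42.5% (adjusted p = 0.00484).

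Several iron and oxidative stress genes rose. FTH1, the heavy chain of ferritin, was at 614, 681 and 522 CPM and 2020.4, 2235 and 2012 CPM, a 3.45-fold rise (adjusted p = 1.11e-07), although FTH1 has many processed pseudogenes and shares 1267 exon bases with BEST1, so its counts are less certain. HMOX1, which degrades heme and releases iron, was at 26.3, 22.4 and 24.8 CPM and 74.99, 76.6 and 95.7 CPM, a 3.35-fold rise (adjusted p = 2.51e-06). The heme transporter SLC48A1 rose 1.52-fold (adjusted p = 0.00841) and GCLM, a subunit of the enzyme that limits glutathione synthesis, 1.48-fold (adjusted p = 0.00393). In all 8 of 39 tested NRF2 genes rose and 1 fell. NQO1, a quinone reductase, rose 1.26-fold. NQO1 lost its edgeR call without nontarget replicate 1, 2 or 3 or FLCN knockdown replicate 1 or 2 (adjusted p = 0.114, 0.0712, 0.0975, 0.0897 and 0.132, in that order).

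The zinc genes moved in both directions. The metallothioneins MT1F, MT1X and MT1E, small proteins that bind zinc and copper, rose 3.61-fold, 2.03-fold and 1.89-fold (adjusted p = 0.00166, 0.00688 and 0.00497), and as near-identical paralogs they share reads. They lie together on chromosome 16, in a run of 27 tested genes with a median of 0.20 that includes them. SLC39A1, a zinc importer, fell from 188, 187 and 177 CPM to 45.6, 40.99 and 43.1 CPM, by 76.5% (adjusted p = 1.03e-09), with little spread in either group, and shares 2061 exon bases with AL358472.7. Of the whole list 4 of 26 members rose and 3 fell. Metallothionein promoters carry metal response elements, searched as TGCACNC or TGCGCNC on both strands. Such a match was found in 46.2% of 26 promoters of the list, in 31.9% of the promoters of all genes tested and in 24.8% of all promoters. Of the metallothioneins only MT1X and MT2A have a promoter among these, and most others belong to zinc transporters. MT2A, which was not called (log2 fold change 0.48), holds 7 matches. The 4 matches before MT1X (chr16:56682310-56682433, plus strand) are in capitals.
MT1X: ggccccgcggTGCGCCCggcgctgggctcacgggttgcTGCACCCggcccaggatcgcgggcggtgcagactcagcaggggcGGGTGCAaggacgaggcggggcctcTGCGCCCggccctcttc

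None of the 13 protein genes of the mitochondrial genome was called by edgeR, with 3 at an unadjusted p below 0.05 and 0 called by DESeq2. Their median was −0.16, and it lay between −0.19 and −0.085 without 1 library. 9 of 80 nuclear genes for respiratory chain and ATP synthase subunits rose (11.2%, beside 10.3% of all genes called), with a median of 0.081. Without 1 library the median of these nuclear genes lay between 0.011 and 0.11. NDUFV3 and NDUFS6, subunits of complex I, rose 1.68-fold and 1.59-fold (adjusted p = 0.00503 and 0.00139). Without chromosomes 2, 4, 5 and 10 this list held 2 rises among 63 genes, and the mitochondrial ribosomal proteins went from 5 rises among 77 (6.49%) to 0 among 61. Of the 79 cytosolic ribosomal proteins 6 rose (7.59%), with quartiles of 0.084 and 0.21 around a median of 0.16. Without chromosomes 2, 4, 5 and 10 the median was 0.15, with 1 rise. It lay between 0.086 and 0.195 without 1 library. RPL37 and RPS7 rose 1.53-fold and 1.52-fold (adjusted p = 0.00115 and 0.00131) and lie on chromosomes 5 and 2. NPM1, a nucleolar chaperone of ribosome assembly at the end of chromosome 5, rose 1.55-fold (adjusted p = 0.007797), beside a median of 0.59 for its neighbors. In the endoplasmic reticulum EDEM3, which marks misfolded glycoproteins for degradation, fell by 51.9% (adjusted p = 2.77e-04) and PDIA6, a disulfide isomerase, by 30.2% (adjusted p = 7.59e-04). PDIA6 shares 1033 exon bases with ATP6V1C2, on the opposite strand. EDEM3 and PDIA6 were among 5 falls and 1 rise in 41 genes, while HSPA5, DDIT3 and ATF4 had log2 fold changes of −0.067, 0.43 and 0.077 and were not called.

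Of the cell division genes, 1 of 54 DNA replication genes rose and 3 fell, 3 of 80 mitosis genes rose and 1 fell, and 1 of 74 DNA damage response genes fell while none rose by edgeR (1 higher at an unadjusted p below 0.05 and 0 higher by DESeq2). The calls were 7.41%, 5% and 1.35% of these lists, beside 10.3% of all genes. MKI67, PCNA, MCM2, CCNB1 and CDK1 had log2 fold changes of 0.076, −0.18, −0.034, −0.011 and 0.0068, and none passed. Of 22 tested G1 and S regulators 2 rose and 2 fell (18.2%, beside 10.3% of all genes), and of 14 CDK inhibitors and their degradation factors 3 rose (21.4%). E2F8, a repressor of the E2F family, rose 1.92-fold (adjusted p = 0.00422), the cyclin CCND1 rose 1.53-fold (adjusted p = 6.18e-04) and E2F4 fell by 35.8% (adjusted p = 0.00142). SKP2, which targets CDK inhibitors for degradation, rose 1.45-fold (adjusted p = 0.00478) within the first block of chromosome 5. RB1, E2F1, CCNE1 and CDKN1A had values of −0.12, −0.19, 0.026 and −0.020, and none was called. CENPK, a kinetochore protein, fell by 53.7% (adjusted p = 0.00174).

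In the apoptosis list 5 of 34 tested genes rose and none fell by edgeR (0 lower at an unadjusted p below 0.05 and 0 lower by DESeq2). HRK, a BH3-only activator of cell death, had 2 counts over the nontarget libraries and 150 over the knockdown libraries, a ratio of 71.9 (95% counting interval 19.6 to 599). BIRC7, an inhibitor of apoptosis, was at 6.68, 7.73 and 7.99 CPM and 22.98, 29.2 and 34.3 CPM, a 3.84-fold rise (adjusted p = 1.29e-05). CFLAR, an inhibitor of death receptors, and BCL2L11, another BH3-only protein, rose 1.48-fold and 1.58-fold (adjusted p = 0.00422 and 0.007899), and both lie on chromosome 2.

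Of 22 tested proximal tubule genes, out of 67 listed, 7 rose and 2 fell with a median of 0.34, and without chromosomes 2, 4, 5 and 10 the counts were 6 and 1 of 13 with a median of 0.48. SLC7A7, which exports cationic amino acids from tubule cells, was at 7.36, 8.79 and 8.15 CPM and 18.4, 20.3 and 14.8 CPM (2.21-fold, adjusted p = 9.44e-04), and PDZK1IP1, a partner of brush border transporters, rose 1.63-fold (adjusted p = 8.71e-04). Most defining genes of that segment were at or near 0 counts in both groups, as given above. CD24, a surface protein of renal progenitor and injured tubule cells, rose 2.43-fold (adjusted p = 2.00e-05), and HAVCR1, the injury marker KIM-1, had a log2 fold change of 0.30 (adjusted p = 0.128). The transcription factors TFAP2A and SIM1 rose 2.62-fold and 1.93-fold (adjusted p = 0.00145 and 2.07e-04), and MECOM fell by 45.9% (adjusted p = 0.00743). PODXL, a sialomucin of podocytes and other epithelia, was at 63.4, 68.5 and 52.2 CPM and 22.8, 25.5 and 24.01 CPM and fell by 60.7% (adjusted p = 2.20e-04), while NPHS1 and WT1, which mark podocytes, had 0 counts in all 6 libraries.

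Cilium genes were called at a share close to that of all genes, with falls and no rises. Of 52 tested genes of cilium assembly and intraflagellar transport 6 fell. This was 11.5%, beside 10.3% of all genes called in either direction and 4.71% called lower. None rose by edgeR (2 higher at an unadjusted p below 0.05 and 0 higher by DESeq2). The median of the list was −0.18. Without chromosomes 2, 4, 5 and 10 it was −0.27, and 4 of 37 genes fell. PKD2, the ciliary calcium channel mutated in polycystic kidney disease, was at 16.8, 20.002 and 16.9 CPM and 9.72, 9.48 and 8.65 CPM, a fall of 47.9% (adjusted p = 0.00229). KIF3A, a motor that carries cargo along the cilium, was at 14.3, 12.9 and 15.5 CPM and 6.06, 8.898 and 7.42 CPM, a fall of 47.8% (adjusted p = 0.00433). For both genes every knockdown library was below every nontarget library.

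The C2H2 zinc finger genes named ZNF, many of which encode repressors of transposable elements, formed the largest list. Of 429 tested members 23 fell and 8 rose, or 7.23% beside 10.3% of all genes, and their median was −0.17, with quartiles of −0.39 and 0.014. Relative to the median of their 40 nearest genes the value was −0.10, and many of them lie together on chromosome 19. ZNF585B there fell by 52.95% (adjusted p = 0.00439), from 6.96, 8.33 and 6.58 CPM to 3.41, 3.65 and 3.18 CPM, and shares 762 exon bases with AC012309.1. ZNF704 on chromosome 8 rose from 1.64, 0.455 and 0.941 CPM to 5.302, 5.25 and 6.53 CPM (5.42-fold, adjusted p = 3.68e-04). Among chromatin genes PHC2 and PHF19, of the Polycomb complexes, fell by 37.1% and 30.3% (adjusted p = 7.66e-04 and 0.003997), and EZH2 and DNMT1 had log2 fold changes of −0.030 and −0.044. Of 27 tested HOX genes 1, HOXB6, rose and 1, HOXB13, fell (log2 fold changes 1.09 and −2.34, adjusted p = 0.0299 and 0.00195, both named after their values were seen), although by DESeq2 the adjusted p of HOXB6 was 0.0716. HOXB6 lost its edgeR call without nontarget replicate 1, 2 or 3 or FLCN knockdown replicate 1 (adjusted p = 0.0715, 0.132, 0.0614 and 0.121, in that order). Of the 27 HOX genes 7.41% were called, beside 10.3% of all genes.

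Single transporters, channels and secretory genes changed strongly. SLC38A5, a glutamine and histidine transporter on chromosome X, was at 47.1, 38.8 and 34.96 CPM in nontarget and 0.505, 0.438 and 0.353 CPM in knockdown libraries, a fall of 98.9% (adjusted p = 1.50e-11). SLC1A3, a glutamate transporter, fell by 61.6% (adjusted p = 0.00353). Of 215 tested solute carriers 17 rose and 14 fell, and of 66 channel subunits 10 rose and 3 fell, among the rises TRPM2, a calcium channel opened by oxidative stress (3.396-fold, adjusted p = 4.36e-04). In the exocytosis list UNC13A, which primes synaptic vesicles, went from 17.2, 17.9 and 16.6 CPM to 0.631, 0.875 and 0.5296 CPM (a fall of 95.9%, adjusted p = 7.24e-08) and SYT13, a synaptotagmin, from 9.001, 9.24 and 15.05 CPM to 90.4, 96.7 and 97.8 CPM (8.59-fold, adjusted p = 1.32e-09). PTPRN, a protein of secretory granules, had 0 counts in the nontarget libraries and 166 in the knockdown libraries, and against a floor of 3 counts over the group it was at least 53.1-fold higher. Counting intervals and floors here cover counting error only.

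Outside these lists, the largest changes with at least 50 counts on average and no overlap between the groups fell into no single class. FBXO32, a ubiquitin ligase of muscle wasting that FOXO factors induce, was at 8.46, 8.79 and 5.17 CPM and 36.4, 42.3 and 25.2 CPM (4.63-fold, adjusted p = 2.23e-06). ARRDC3, an arrestin-like protein that promotes receptor endocytosis, rose 3.97-fold (adjusted p = 2.65e-06), and FOLR1, a folate receptor, 6.601-fold (adjusted p = 6.91e-07). RELN, a secreted glycoprotein of neuronal migration, rose 4.44-fold (adjusted p = 3.59e-06) and PLEKHA7, an adherens junction protein, 3.65-fold (adjusted p = 3.09e-07). Among the falls were LPP, a focal adhesion protein, at 110.5, 108 and 144 CPM and then 42.3, 38.4 and 46.3 CPM (a fall of 65.03%, adjusted p = 2.65e-06), NEK7, a kinase of the NLRP3 inflammasome, by 72.6% (adjusted p = 3.63e-06), and CRABP2, a retinoic acid carrier, by 70.4% (adjusted p = 2.51e-06). ARNTL2, a paralog of the clock factor BMAL1, fell by 65.6% (adjusted p = 4.22e-05), WASHC4, a subunit of the endosomal WASH complex, by 65.2% (adjusted p = 2.51e-06) and LRG1, a secreted glycoprotein that modifies TGF-beta signaling, by 90.6% (adjusted p = 1.42e-07).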

How the data were processed

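Libraries of polyadenylated RNA from HK2 cells were made with a kit that does not mark strand. The authors used fastp to trim reads, STAR in its 2-pass mode to map them to GRCh38 and featureCounts to count them per gene. Tool versions, annotation release and strand setting are not given in the sources used here. The deposited values are counts per gene, together with a score made by the authors that divides each count by 1 factor per library and rounds it. The score was not tested. The counts of the series table and of the per-library files differed in 0 values.

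Of 58288 gene IDs, 13959 passed edgeR's filterByExpr and held 99.78% of the counts. With edgeR 4.0.16 (R 4.3.3, limma 3.58.1) and TMM factors, all 12 libraries entered a single robust quasi-likelihood model that had a term per group and no covariate. The study states that it made every pairwise comparison with DESeq2. The biological coefficient of variation was 11.99%. Adjusted p-values are Benjamini-Hochberg values over all genes tested. SE is the log2 fold change divided by the square root of F. Fold changes of low genes depend on edgeR's prior count. Library totals of 5825779 to 8151168 counts limit precision for genes with few counts. Coordinates and overlaps came from GENCODE 29 (GRCh38), which held 55661 IDs at the same version and 2361 at another. Of the other called genes named, BCL2L11, CDH3, CFLAR, IL1RAP, ITGB6, NQO1, PAX8 and TFAP2A share 535 to 1488 exon bases with another annotated gene, and without strand such reads cannot be told apart. DESeq2 1.42.0, other factors and filters, a replicate block and fits without 1 library were tried as alternatives, and the model was tested on simulated counts.

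Members and 81 gene lists were chosen with earlier results of these data known. The text names FLCN, a set of widely used genes whatever their result, up to 4 called members per list with a mean of at least 20 counts and the largest log2 fold changes, every tested member of lists of up to 15, and up to 20 rises and 20 falls called at 2.5-fold with at least 50 counts on average and groups that did not overlap. Some genes that the rule would name are not reported here. Genes outside this rule are marked as chosen after their values were seen. Replicates are biological by the labels, but separate cultures are not described, so p-values measure the spread between these libraries.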

Additional observations from a re-analysis of the deposited data

Results flagged for a closer look

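Long-term libraries, harvested after many more passages, allowed the effect of knockdown to be compared between the lengths of culture, as the long-term minus the short-term log2 fold change (edgeR test of this difference, adjusted over all genes). It passed an adjusted p of 0.05 for 76 of the 188 genes named here, chosen with results known, and for 13.4% of all 13959 genes tested. Each gene below is listed with that difference on the log2 scale. Some of the chromosome runs described above also differed between the lengths of culture. The second run of chromosome 2 had a median of 0.31 in short-term and −0.025 in long-term libraries, the run of chromosome 8 had 0.22 and −0.0017, and the runs of chromosome 10 had 0.23 and 0.24 in short-term and −0.027 in both in long-term libraries. The first and the middle run of chromosome 5 had 0.38 and 0.58 in short-term and 0.23 and 0.20 in long-term libraries. Of the genes listed here, ARRDC3, ATG9A, CAVIN2, CFLAR, ERAP1, FN1, SCD and SLC1A3 lie in these runs, and the part of the regional shifts in their differences was not tested.

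A positive short-term and a negative long-term log2 fold change were seen for ATG9A (−0.69), BAMBI (−3.29), BMP8B (−1.905), CAVIN1 (−1.37), CAVIN2 (−8.201), CCND1 (−5.99), CDH3 (−5.34), CFLAR (−0.95), CLDN4 (−1.98), EGFR (−0.63), ENG (−1.11), EPAS1 (−1.804), F3 (−2.57), FN1 (−3.17) and FNIP2 (−2.22). Also in this group were HRK (−7.98), KRT18 (−0.54), KRT80 (−1.098), KRT81 (−3.105), KRT86 (−2.94), NDRG1 (−2.05), NPPB (−9.65), PAX8 (−0.94), PCDH1 (−4.91), PLEKHA7 (−3.58), RELN (−3.22), RRAGD (−1.81), S100A4 (−2.02), SIM1 (−1.32) and SLC48A1 (−1.11). Further members were SLC7A7 (−2.14), TGFA (−2.37), THBS2 (−5.78), TRPM2 (−2.88), VEGFA (−0.73) and ZNF704 (−6.94). The short-term value of CAVIN1 (0.050) lay near 0 and changed sign without 1 library, so its place in this group is not firm.

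A negative short-term and a positive long-term value were seen for ELOVL6 (1.33), EZH2 (0.56), PCOLCE2 (1.95), PKD2 (0.98), PLSCR1 (0.70), SCD (0.81), SREBF1 (0.97) and TGFB1 (1.23). The short-term value of EZH2 (−0.030) lay near 0 and changed sign without 1 library, so its short-term direction is not firm.

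The same sign with a larger long-term value was seen for CDKN1A (−1.54), CLDN1 (−2.27), COL4A1 (−0.94), COL5A1 (5.598), CTGF (−0.80), DEPTOR (−3.505), ELOVL7 (−1.102), HIF1A (−0.45), HOXB13 (−5.399), LPP (−0.86), PHF19 (−0.60), PPARGC1A (0.74), SLC1A3 (−2.78), SLC39A1 (−0.65) and SNAI2 (−0.67). Also in this group were TAGLN (−1.71), TGFB2 (−0.67), TNFRSF1B (−4.21) and ZNF585B (−2.902). The short-term values of CDKN1A (−0.020) and HIF1A (−0.0043) lay near 0 and changed sign without single libraries, so their shared sign is not firm.

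The same sign with a smaller long-term value was seen for ARRDC3 (−1.19), CD24 (−1.002), ENO2 (−0.95), ERAP1 (−0.67), FAT4 (1.27), FOLR1 (−1.36), FTH1 (−1.02), GPNMB (−2.098), LRG1 (1.82), PFKFB3 (−0.53), SEMA4D (−0.84), STC2 (−0.88) and SYT13 (−2.06).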

How the results depend on the processing

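The fall of FLCN passed under every alternative that gave it a value, with log2 fold changes of −1.45 to −1.26 (at least 10 CPM on average left it out). The 1441 calls became 915 without the genes of chromosomes 2, 4, 5 and 10 and 874 to 1258 in edgeR fits that left out 1 library. With the replicate block the count was 2359, and all 1441 calls remained. Deviations of libraries with the same number had correlations of 0.017, 0.11 and 0.054, and those with different numbers −0.11 to 0.054. The main fit did not pair the libraries by number. Replicate 3 stood apart in both groups, by the chi-square of the counts per degree of freedom between 2 libraries. In the knockdown group it was 3.327 for replicates 1 and 2, and 10.83 and 11.76 against replicate 3. In the nontarget group these values were 2.073, 4.145 and 4.061. Whether the number marks a shared batch was not tested. The 250 calls at 2.5-fold became 52 among genes of at least 10 CPM, and 445 and 938 at fold limits of 2 and 1.5. The 391 called members of the gene lists became 651 with the replicate block, 257 without chromosomes 2, 4, 5 and 10, and 242 to 363 without 1 library. Higher calls made up 40.2% of calls without these chromosomes and 53.6% to 58.3% under the other settings (54.4% as reported). With RLE factors the all-gene median lay at 0.0021. Of the 138 called genes named here, 20 lost the call in at least 1 fit without 1 library. Of those not called, 7 passed in at least 1 such fit (CTSB, DDIT4, EGR1, JUN, KRT86, LDHA and SCD). With the replicate block 10 passed, namely these 7 and KRT8, KRT18 and SREBF1. Log2 fold changes near 0 changed sign without single libraries, with ranges of −0.044 to 0.16 for ATF4, −0.22 to 0.053 for B2M, −0.11 to 0.14 for CAVIN1, −0.094 to 0.066 for CCNB1, −0.038 to 0.081 for CCNE1, −0.070 to 0.087 for CDK1, −0.13 to 0.059 for CDKN1A, −0.072 to 0.029 for EZH2, −0.36 to 0.12 for FASN, −0.10 to 0.023 for FNIP1, −0.035 to 0.040 for HIF1A, −0.12 to 0.014 for MCM2, −0.020 to 0.10 for MITF, −0.037 to 0.25 for MKI67, −0.032 to 0.22 for MTOR, −0.082 to 0.066 for RPTOR and −0.092 to 0.24 for RRAGC. The cause was not tested. The medians of 39 of the 81 lists changed sign under some setting. Of these, 5 were beyond 0.1 in size, namely other collagens, cadherins, histones, and markers of podocytes and fibroblasts. The median SE of the log2 fold change was 0.34 for genes with a mean below 50 counts and 0.11 for those with at least 500.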

Other observations

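Genes of axon and tissue guidance, MHC class I processing and chaperonins were also measured. Of 47 tested Eph, semaphorin, netrin, Slit and Robo genes 4 rose and 2 fell, and SEMA4D, a semaphorin on chromosome 9, rose from 9.41, 7.42 and 10.7 CPM to 23.5, 22.5 and 29.5 CPM (adjusted p = 4.78e-05). In this guidance list 12.8% of genes were called, beside 10.3% of all genes. Of 21 MHC class I and antigen processing genes 4 rose, among them ERAP1 and ERAP2, which trim peptides in the endoplasmic reticulum (1.81-fold and 2.12-fold, adjusted p = 2.83e-04 and 7.44e-05). Both lie in the middle run of chromosome 5, where the 40 nearest tested genes of each had a median log2 fold change of 0.44, and without chromosomes 2, 4, 5 and 10 the count of the list was 1 of 18. Of 46 heat shock proteins and chaperonin subunits 5 rose and 1 fell, and without chromosomes 2, 4, 5 and 10 the counts were 0 and 1.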
